A study of Mus musculus with 8 samples.

Results

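The 34 genes described here encode glucose transporters, the enzymes of glycolysis, the handlers of pyruvate and lactate, and the enzymes of the pentose phosphate pathway. They were chosen by gene symbol among the 55376 genes of the deposited count table, and all 34 were among the 13721 genes with enough counts to test. RNA was measured by sequencing in macrophages grown from mouse bone marrow with M-CSF at 50 ng/mL. The mice were male, 13 weeks old and either DNMT3A-HET (HET), a label that names the gene of the de novo DNA methyltransferase Dnmt3a, or wild type (WT), with 3 mice per genotype. The 4 groups were HET with IL-6, HET control, WT with IL-6 and WT control, each with 2 libraries numbered 1 and 2. IL-6, a cytokine that signals through STAT3, was present at 10 ng/mL for 2 days from day 6, and all cells were collected on day 8. The labels do not say which mouse or mice gave a library, so the p-values reflect how far these libraries vary, and that variation may be technical.

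Glycolysis splits glucose into pyruvate in the cytosol and yields ATP without oxygen, and pyruvate can then leave the cell as lactate or enter mitochondria. The pentose phosphate pathway branches off after the first step and supplies NADPH and ribose phosphate. Macrophages are known to raise glucose uptake and glycolysis when activated by inflammatory stimuli, and the transcription factors HIF-1 and Myc are known activators of many of these genes.

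Across the series, counts totalled 18926641 to 24881197 per library, other than HET IL-6 number 2 with 50137897. Levels are given as CPM, counts scaled to library size by TMM, in the order of library 1 and library 2. Dnmt3a was at 140 and 213 CPM in HET IL-6 libraries, 166 and 248 CPM in HET control libraries, 175 and 183 CPM in WT IL-6 libraries and 275 and 244 CPM in WT control libraries. The library labelled HET control number 2 lay within the WT control range and the one labelled HET IL-6 number 2 above both WT IL-6 libraries, and HET against WT did not pass the test (log2 fold change -0.17 ± 0.17 SE, edgeR adjusted p = 0.536). The labels do not say which part of the gene is altered, so a count over the whole gene may not check the label, and member counts are given below also without the HET number 2 libraries. The 8 macrophage markers summed to 10210 to 10595 CPM in HET IL-6, 8024 to 8184 CPM in HET control, 10617 to 10784 CPM in WT IL-6 and 8179 to 8352 CPM in WT control libraries, so the sum was higher with IL-6, and its part in the results below was not tested. Marker sums of neutrophils, stromal cells, erythroid cells, B cells, T and NK cells, dendritic cells, and muscle and fat cells stayed at or under 11.2 CPM in every library, and Lum, Pax5, Cd3e, Ncr1, Myh4 and Plin1 were at 0.

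With IL-6, transcripts of the glucose importer GLUT1, of most enzymes of lower glycolysis and of both lactate carriers among the members rose. Those of 3 of the 5 pentose phosphate members fell. Averaged over genotype, 24 of the 34 members passed an edgeR adjusted p of 0.05, against a background of 23.6% of all tested genes. Of these, 17 rose and 7 fell, against backgrounds of 10.8% and 12.8%. The median log2 fold change of the members was 0.17, beside -0.01 over all tested genes. The members were chosen with earlier results of these data known. Without both WT number 1 or both WT number 2 libraries the member median was 0.25 and 0.07. Without both HET number 1 or both HET number 2 libraries it was 0.20 and 0.13. In 17 of the 34 members the IL-6 and control libraries did not overlap, in the same direction, within each genotype, against a background of 25.0%. In bulk RNA, a change in the share of cells that express a gene and a change in RNA per cell cannot be told apart.

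The upstream bases of the 4 members that rose the most are shown because HIF-1 is known to bind an element with the core ACGTG in the promoters of glycolytic genes. Each line holds the 250 bases before the start site from RefSeq (build GRCm38.p6, 5′ to 3′), with ACGTG or its reverse complement CACGT in capitals.
Slc16a3 chr11:120948817-120949066 plus strand: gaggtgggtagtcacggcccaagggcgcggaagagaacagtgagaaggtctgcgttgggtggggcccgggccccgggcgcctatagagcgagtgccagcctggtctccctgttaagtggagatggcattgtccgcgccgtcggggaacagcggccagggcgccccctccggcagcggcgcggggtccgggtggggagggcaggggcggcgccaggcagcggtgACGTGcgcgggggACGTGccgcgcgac
Slc2a1 chr4:119108495-119108744 plus strand: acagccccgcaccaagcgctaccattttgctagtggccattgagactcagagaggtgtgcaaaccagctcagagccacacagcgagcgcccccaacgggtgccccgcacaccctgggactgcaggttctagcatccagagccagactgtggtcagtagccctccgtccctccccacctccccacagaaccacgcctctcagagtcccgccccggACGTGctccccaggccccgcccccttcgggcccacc
Pdk1 chr2:71872974-71873223 plus strand: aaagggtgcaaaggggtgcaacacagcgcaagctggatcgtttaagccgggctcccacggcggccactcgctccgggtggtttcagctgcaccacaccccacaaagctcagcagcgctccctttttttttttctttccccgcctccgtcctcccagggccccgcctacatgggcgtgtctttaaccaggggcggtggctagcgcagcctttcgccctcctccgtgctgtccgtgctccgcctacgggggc
Pgk1 chrX:106186850-106187099 plus strand: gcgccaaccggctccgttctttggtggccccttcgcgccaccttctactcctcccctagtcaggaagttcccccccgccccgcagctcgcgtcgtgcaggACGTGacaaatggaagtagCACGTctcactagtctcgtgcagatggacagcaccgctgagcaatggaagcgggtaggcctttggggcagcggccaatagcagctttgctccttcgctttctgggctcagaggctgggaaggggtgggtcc
Slc16a3 held the core beginning at -27 and -14 relative to the start site, Slc2a1 at -36 and Pgk1 at -150 and -131, while these letters were not in the Pdk1 window. Over both strands, the core was in 11 of the 33 members with an entry in the promoter table (33.3%), in 16.5% of all 27025 promoters and in 21.9% of the 9988 promoters of tested genes. The 11 were Slc2a1, Hk2, Hk3, Pfkm, Pfkfb3, Pgk1, Pgam1, Ldha, Pdk3, Slc16a1 and Slc16a3, of which Hk2 and Pfkm did not pass the IL-6 test and Pdk3 fell. The E-box CACGTG, bound by Myc and its relatives and overlapping the core above, was in Pfkm, Ldha and Slc16a1 (9.09% of members, 6.04% of all promoters and 8.6% of those of tested genes). The STAT palindrome TTCNNNGAA was in 0 of the 33 windows, beside 7.14% of all promoters and 5.9% of those of tested genes. These matches describe letters in a window and not binding.

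**Figure D1:**
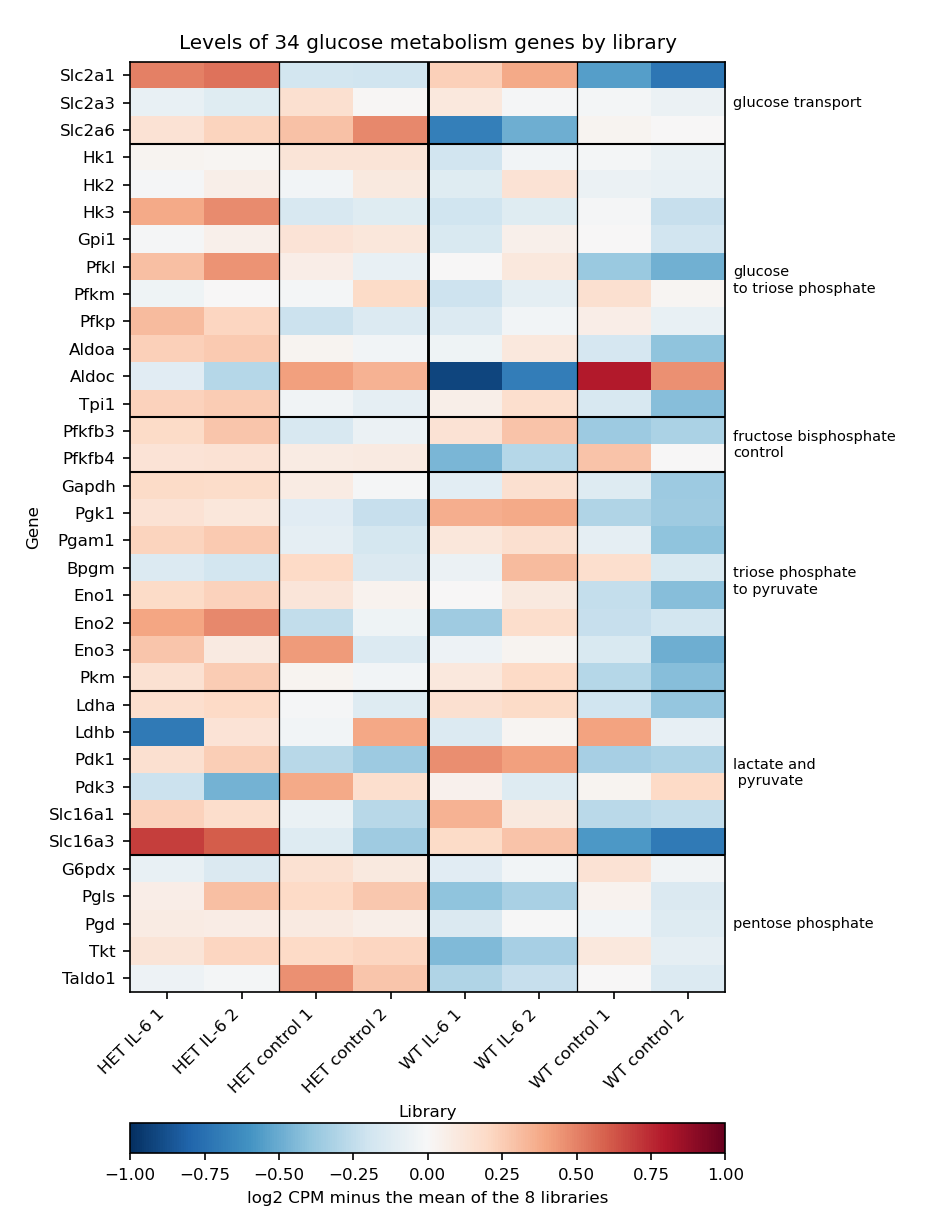
Level of each of the 34 members (vertical axis, grouped by role) in each of the 8 libraries (horizontal axis), as log2 CPM minus the mean of the 8 libraries on a colour scale. Slc2a1, Slc16a3 and Pdk1 are redder in IL-6 than in control columns of both genotypes, and Aldoc is bluer.

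Among the transporters, Slc2a1 rose, Slc2a6 fell and Slc2a3 did not pass the test. Slc2a1 (chromosome 4, 119108711 to 119137983, mm10) encodes GLUT1, the basal glucose importer of most cells. Its level was 105 and 108 CPM in HET IL-6 libraries against 65.3 and 64.6 CPM in HET control libraries, and 87.3 and 96.6 CPM in WT IL-6 libraries against 50.6 and 44.9 CPM in WT control libraries. All 4 IL-6 libraries lay above all 4 control libraries, with a log2 fold change of 0.83 ± 0.06 (1.78-fold, edgeR adjusted p = 1.95e-07). Slc2a6 encodes GLUT6, a transporter found on lysosomal membranes in macrophages. It had 126 and 133 CPM in HET IL-6 libraries against 139 and 159 CPM in HET control libraries, and 70.7 and 80.9 CPM in WT IL-6 libraries against 116 and 114 CPM in WT control libraries. IL-6 libraries were lower in both genotypes without overlap (log2 fold change -0.40 ± 0.06, edgeR adjusted p = 0.000337). By genotype, the fall passed in WT (-0.60 ± 0.09) and not in HET (-0.20 ± 0.09, edgeR adjusted p = 0.141). The difference of response was not called (edgeR adjusted p = 0.0738). Slc2a3, which encodes the high-affinity transporter GLUT3, ran from 36.6 to 44.6 CPM over the 8 libraries, and its IL-6 libraries were below control in HET and above control in WT.

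Slc2a1 and Slc2a6 moved in opposite directions, and the make-up of the transporter transcripts shifted. Per exon length, in TPM (counts divided by exon length and scaled to a fixed sum per library), Slc2a1 made up 40.2% and 39.9% of the 3 transporters in HET IL-6 libraries, against 27.4% and 25.1% in HET control libraries. In WT it made up 47.1% and 47.3% with IL-6, against 25.7% and 23.9% in control. Slc2a6 was the largest share in 6 of the 8 libraries, and Slc2a1 was in both WT IL-6 libraries. The summed TPM of the 3 transporters was 261 and 269 in HET IL-6 libraries against 249 and 269 in HET control libraries, and 190 and 207 in WT IL-6 libraries against 203 and 197 in WT control libraries. On this scale the sums overlapped between IL-6 and control in both genotypes. In CPM, without length, they were 269 and 278 in HET IL-6 libraries against 249 and 264 in HET control libraries, which did not overlap, and 201 and 217 in WT IL-6 libraries against 206 and 197 in WT control libraries, which did. Shares and sums were not tested and are given as values; within a genotype, 2 libraries against 2 allow no p below 0.333 in a 2-sided exact permutation test.

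**Figure D2:**
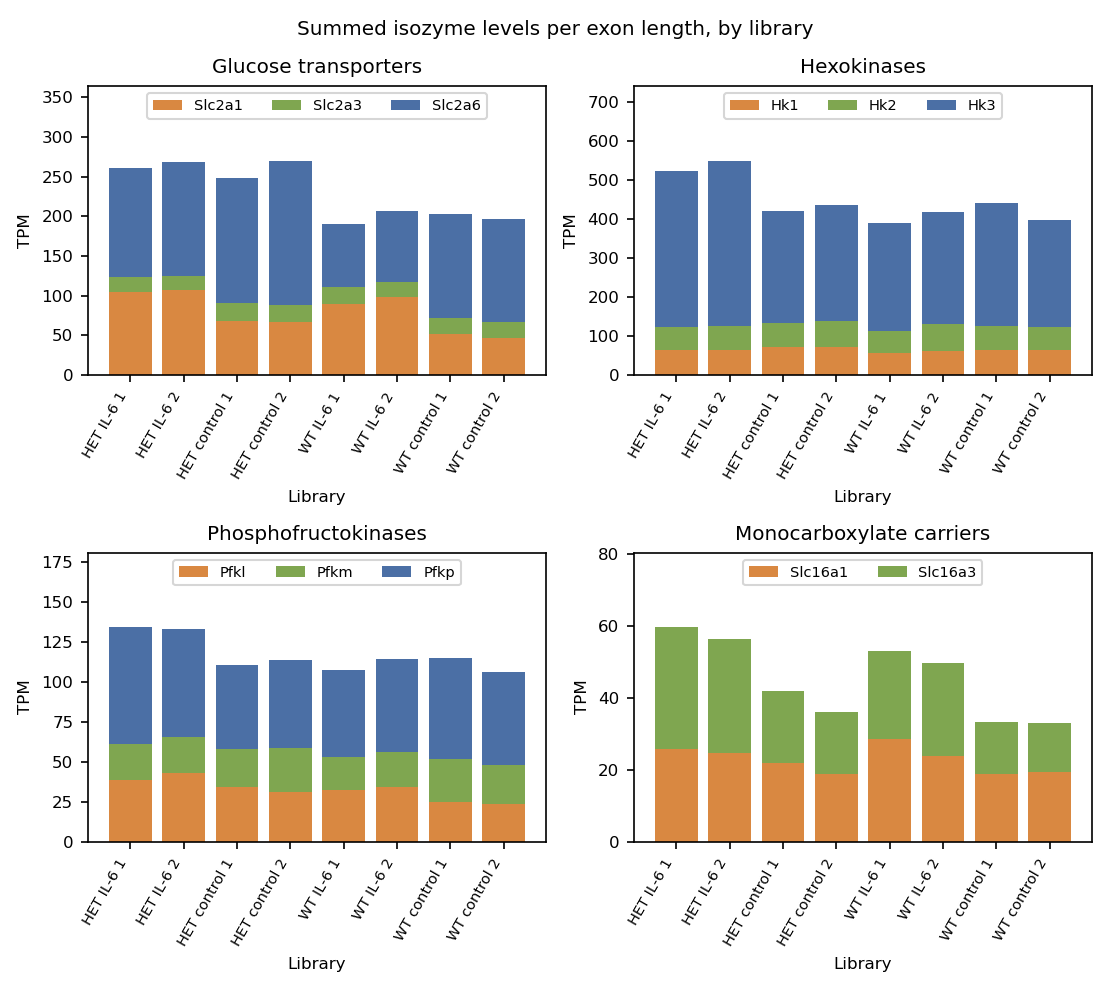
TPM (vertical axes) of the glucose transporters, hexokinases, phosphofructokinases and monocarboxylate carriers, stacked by gene in each library (horizontal axes). Slc2a1 widens with IL-6 while the transporter total in TPM does not separate IL-6 from control, and Hk3 is tallest in the HET IL-6 libraries.

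In the upper part of glycolysis, from glucose to triose phosphate, 5 of 10 members rose, 1 fell and 4 did not pass the test. The backgrounds were 10.8% higher and 12.8% lower. Hexokinases trap glucose as glucose 6-phosphate, and Hk3, the isoform typical of myeloid cells, carried 67.8% to 77.1% of hexokinase TPM. Hk3 rose on average (log2 fold change 0.26 ± 0.06, edgeR adjusted p = 0.00609) through the HET libraries, as described below, while Hk1 (-0.08 ± 0.06) and Hk2 (0.03 ± 0.07) did not pass. Pfkl encodes the liver type of phosphofructokinase, the committed step of glycolysis. It had 73.6 and 81.8 CPM in HET IL-6 libraries against 62.6 and 56.8 CPM in HET control libraries, and 59.9 and 64.4 CPM in WT IL-6 libraries against 46.2 and 42.9 CPM in WT control libraries. IL-6 libraries were above control in each genotype (0.43 ± 0.06, edgeR adjusted p = 0.000197), whereas the muscle type Pfkm did not pass (-0.18 ± 0.07). Gpi1, which isomerises glucose 6-phosphate, was at 372 to 468 CPM and did not pass.

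The aldolases split fructose bisphosphate, and here they moved apart. Aldoc (chromosome 11, 78322968 to 78327781, mm10), the aldolase best known from brain, had 26.6 and 23.6 CPM in HET IL-6 libraries against 38.1 and 36.6 CPM in HET control libraries. In WT it had 15.2 and 17.8 CPM with IL-6 against 49.9 and 39.4 CPM in control. All 4 IL-6 libraries were below all 4 control libraries, which gave the largest fall among the members (log2 fold change -1.01 ± 0.09, edgeR adjusted p = 8.02e-07). Aldoa, the main aldolase with at least 93.1% of aldolase TPM in every library, rose (0.28 ± 0.06), as did Tpi1 (0.35 ± 0.07), the isomerase of the triose phosphates. The counts of Aldoa cover 2 annotated gene models of that symbol.

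Among the members, 2 encode bifunctional enzymes that set fructose 2,6-bisphosphate, the activator of phosphofructokinase, and they passed the test in opposite directions. Pfkfb3, the isoform with high kinase activity, had 92.1 and 97.7 CPM in HET IL-6 libraries against 72.2 and 77.4 CPM in HET control libraries, and 89.1 and 98.5 CPM in WT IL-6 libraries against 62.9 and 64.9 CPM in WT control libraries. All IL-6 libraries were above all control libraries (0.45 ± 0.06, edgeR adjusted p = 5.86e-05). Pfkfb4 fell by 0.23 on the log2 scale (edgeR adjusted p = 0.0306), and its IL-6 libraries were below control only in WT. That call was lost without any 1 of 6 libraries (adjusted p of 0.0849 to 0.121), namely all 4 HET libraries, WT IL-6 number 1 and WT control number 1.

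From triose phosphate to pyruvate, 6 of 8 members rose and none fell, against backgrounds of 10.8% and 12.8%. Pgk1 (chromosome X, 106187100 to 106203699, mm10) encodes phosphoglycerate kinase, which makes the first ATP of the pathway, and rose the most of the 8. It had 542 and 529 CPM in HET IL-6 libraries against 452 and 417 CPM in HET control libraries, and 628 and 636 CPM in WT IL-6 libraries against 397 and 383 CPM in WT control libraries. All IL-6 libraries were above all control libraries (0.50 ± 0.05, edgeR adjusted p = 1.05e-05). Smaller rises came from Pgam1, phosphoglycerate mutase (0.38 ± 0.07), Pkm, pyruvate kinase (0.35 ± 0.06), Eno2, an enolase (0.35 ± 0.11), Eno1, the main enolase (0.25 ± 0.06), and Gapdh (0.21 ± 0.07). Pkm, the member with the highest TPM, was at 2567 and 2756 CPM in HET IL-6 libraries against 2361 and 2265 CPM in HET control libraries, and 2481 and 2658 CPM in WT IL-6 libraries against 1895 and 1725 CPM in WT control libraries. Counts per gene do not separate its splice forms, which differ in their regulation. Bpgm, which makes 2,3-bisphosphoglycerate, and Eno3 were at 3 to 10.3 CPM and did not pass. By genotype, 3 of the 8 passed in HET and 4 in WT, all higher, against a background of 18.3% in each. Gapdh passed in neither genotype, Eno1 and Pkm in WT only and Eno2 in HET only. For these genes the responses in HET and WT were not called different.

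The Gapdh call was the weakest of the 17 rises (edgeR adjusted p = 0.0432), although Gapdh is often used as a constant reference gene. Its level was 1650 and 1648 CPM in HET IL-6 libraries against 1530 and 1438 CPM in HET control libraries, and 1347 and 1615 CPM in WT IL-6 libraries against 1324 and 1124 CPM in WT control libraries. The call was lost without any 1 of 6 libraries (adjusted p of 0.0848 to 0.168), namely all 4 HET libraries, WT IL-6 number 2 and WT control number 2. With scaling to total counts, neither Gapdh nor Pfkp passed. Several of these genes have close copies whose reads could be shared. Of the 50-base words in their transcripts, 72.2% for Eno1, 68% for Pgk1, 41.5% for Pgam1, 34.4% for Pkm and 27.8% for Gapdh occurred in another gene. The closest copies had low counts, at most 2.28 CPM for the copy of Pkm and 0.496 CPM for that of Eno1. Reads that match both a gene and its copy may have been counted for neither. Low counts of a copy therefore do not show that no reads were lost. Counts of Pkm are also uncertain because 15.3% of its exon bases overlap Gm49759, at 35.6 to 46.2 CPM, on the same strand.

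For pyruvate and lactate, 4 of 6 members rose and 1 fell, against backgrounds of 10.8% and 12.8%. Of 6 further tested genes listed as other glucose and lactate carriers, 1 rose and 1 fell (33.3% called, background 23.6%). Slc16a3 (chromosome 11, 120948480 to 120960868, mm10) encodes MCT4, the lactate exporter of glycolytic cells, and had the largest rise among the 34 members. It was at 51.3 and 48.3 CPM in HET IL-6 libraries against 29.1 and 24.8 CPM in HET control libraries, and at 36.3 and 38.7 CPM in WT IL-6 libraries against 21.4 and 19.5 CPM in WT control libraries. No IL-6 library overlapped a control library (0.88 ± 0.07, 1.84-fold, edgeR adjusted p = 4.84e-07). Slc16a1, which encodes the related carrier MCT1, rose less (0.43 ± 0.08), and Slc16a3 made up 56.8% and 56.4% of the TPM of both carriers in HET IL-6 libraries against 47.9% and 47.5% in HET control libraries. In WT the share was 46.2% and 52.2% with IL-6 against 43.7% and 41.1% in control. Ldha, which encodes the lactate dehydrogenase subunit that favours lactate formation, rose by 0.36 ± 0.06 and held at least 99.1% of the TPM of Ldha and Ldhb together. Ldhb was at 1.2 to 2.59 CPM and did not pass.

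Pyruvate dehydrogenase kinases block the entry of pyruvate into the citric acid cycle, and Pdk1 and Pdk3 moved in opposite directions. Pdk1 (chromosome 2, 71873224 to 71903858, mm10) had 120 and 127 CPM in HET IL-6 libraries against 88.2 and 83.5 CPM in HET control libraries, and 148 and 142 CPM in WT IL-6 libraries against 85.1 and 86.4 CPM in WT control libraries. All IL-6 libraries were above all control libraries (0.64 ± 0.05, edgeR adjusted p = 7.7e-07). Pdk3 had 15.5 and 13 CPM in HET IL-6 libraries against 23.4 and 20.2 CPM in HET control libraries, and 18.5 and 16.5 CPM in WT IL-6 libraries against 18.3 and 20.7 CPM in WT control libraries. Its libraries were apart in HET and overlapped in WT (-0.39 ± 0.09, edgeR adjusted p = 0.00484). The Pdk1 share of the TPM of both kinases averaged 74% ± 3.02 in HET IL-6 against 56.5% ± 1.56 in HET control, and 73.2% ± 1.02 in WT IL-6 against 59.2% ± 1.87 in WT control (SD, n = 2).

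In the pentose phosphate pathway no member rose, 3 of 5 fell and 2 did not pass, against backgrounds of 10.8% higher and 12.8% lower. Of 7 further tested genes of this pathway, 0 were called by edgeR (background 23.6%), with a median log2 fold change of -0.08. G6pdx, the entry enzyme that makes NADPH, fell by 0.18 on the log2 scale (edgeR adjusted p = 0.0398). Tkt and Taldo1, the transketolase and transaldolase that return carbon to glycolysis, fell by 0.22 and 0.30 on the log2 scale (edgeR adjusted p = 0.0175 and 0.00182). By genotype, Tkt was at -0.04 ± 0.09 in HET, where its libraries overlapped, and -0.40 ± 0.09 in WT, and Taldo1 was at -0.40 ± 0.08 in HET and -0.20 ± 0.08 in WT, with no call of a difference for either (adjusted p = 0.0896 and 0.338). Taldo1 had 205 and 210 CPM in HET IL-6 libraries against 292 and 258 CPM in HET control libraries, and 173 and 181 CPM in WT IL-6 libraries against 213 and 193 CPM in WT control libraries. IL-6 libraries were lower in both genotypes without overlap. Pgd, which makes the second NADPH, hardly moved (0.01 ± 0.06), and Pgls, the lactonase between them, was at -0.18 ± 0.07 and did not pass. Of these falls, Taldo1 alone passed without each of the 8 libraries in turn, while G6pdx was lost without any 1 of 6 (adjusted p of 0.0938 to 0.214, all HET libraries, WT IL-6 number 1 and WT control number 1) and Tkt without any 1 of 5 (0.0555 to 0.133, all HET libraries and WT IL-6 number 1). For G6pdx, 13.6% of exon bases overlap Ikbkg on the other strand, at 56.7 to 67.6 CPM, so its counts are uncertain.

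Summed over the 34 members, the share of all TPM was 0.979% and 0.997% in HET IL-6 libraries against 0.942% and 0.9% in HET control libraries, and 0.906% and 0.968% in WT IL-6 libraries against 0.815% and 0.731% in WT control libraries. WT control libraries were the lowest. The 5 pentose phosphate members ran the other way, at 0.103% and 0.104% in HET IL-6 libraries against 0.129% and 0.122% in HET control libraries, and 0.0891% and 0.0937% in WT IL-6 libraries against 0.111% and 0.101% in WT control libraries. On the TPM scale the highest members were Pkm, with a mean of 1678 over the 8 libraries, Gapdh with 1268, Aldoa with 841, Pgk1 with 797 and Ldha with 779, and the lowest was Ldhb with 4.6. Levels of these genes thus spanned a wide range, and the genes with the largest IL-6 rises, Slc16a3 at 22.6 and Slc2a1 at 79.4, were not among the highest.

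Of the 24 members called for IL-6, 18 stayed called without each library in turn. The 6 that did not were Pfkp, Pfkfb4, Gapdh, Eno2, G6pdx and Tkt. For Pfkp, any 1 of 6 libraries ended the call (adjusted p of 0.0575 to 0.155, all HET libraries, WT IL-6 number 2 and WT control number 2), and for Eno2 any 1 of 3 did (0.0912 to 0.132, HET IL-6 number 2, HET control number 1 and WT IL-6 number 2). Dropping both HET number 2 libraries left 15 members called, and dropping both HET number 1 libraries left 14.

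Within each genotype, 15 members passed in HET and 17 in WT, against a background of 18.3% of tested genes in each. In HET, 12 were higher and 3 lower, against backgrounds of 8.87% and 9.41%. In WT, 13 were higher and 4 lower, against backgrounds of 7.91% and 10.4%. Libraries did not overlap for 26 of 34 members in HET, against a background of 64.8%, and for 23 in WT, against 52.6%. The member median log2 fold change in WT was 0.10, but 0.26 without WT IL-6 number 1 and -0.05 without WT IL-6 number 2. Without WT control number 1 or number 2 it was 0.13 and 0.07. Slc2a1 had a log2 fold change of 0.71 ± 0.09 in HET and 0.94 ± 0.09 in WT, Pdk1 0.53 ± 0.08 and 0.76 ± 0.08, and Slc16a3 0.88 ± 0.10 and 0.87 ± 0.10, in the same order. Pkm and Ldha passed in WT (0.51 ± 0.08 and 0.47 ± 0.09) and not in HET (0.20 ± 0.08 and 0.25 ± 0.09), but the difference of response was not called for either (edgeR adjusted p = 0.141 for Pkm and 0.314 for Ldha). In HET, 5 of the 15 calls stayed without each library, those of Slc2a1, Hk3, Pfkp, Pdk1 and Slc16a3. In WT, 14 of the 17 did. The HET count came to 9 when HET IL-6 number 1 was left out, 6 for HET IL-6 number 2 and 8 for HET control number 1. Leaving out the pair of HET number 2 libraries gave 3, and the pair of HET number 1 libraries 4.

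**Figure D3:**
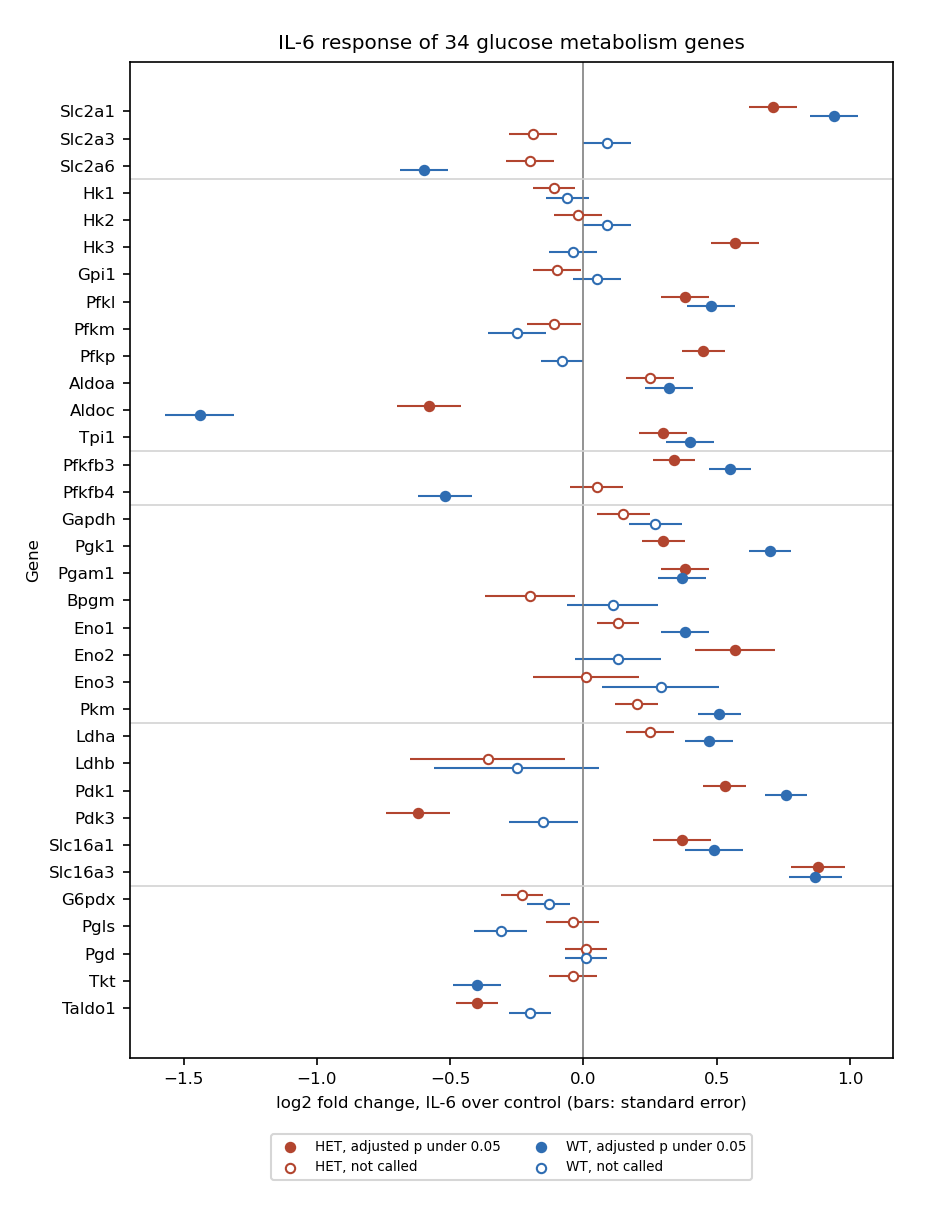
Log2 fold change of IL-6 over control (horizontal axis, bars are standard errors) for each member (vertical axis) in HET and WT, with filled points where the edgeR adjusted p was under 0.05. Slc2a1, Pdk1 and Slc16a3 lie to the right of 0 in both genotypes, while Hk3 and Pfkp do so in HET.

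The response to IL-6 differed between HET and WT for 5 of the 34 members, against a background of 8.12% of all tested genes. The difference, HET minus WT, was positive for Aldoc, Hk3, Pfkfb4 and Pfkp (background 4.52%) and negative for Pgk1 (background 3.60%). Over all 34 members, 11 had a positive difference, and the median was -0.10, beside 0.02 over all tested genes. Without both WT number 1 or both WT number 2 libraries this member median was -0.23 and 0.05. Hk3 (chromosome 13, 55005985 to 55021385, mm10) had 419 and 447 CPM in HET IL-6 libraries against 289 and 296 CPM in HET control libraries, and 281 and 296 CPM in WT IL-6 libraries against 320 and 275 CPM in WT control libraries. HET IL-6 libraries were above all the others, and WT libraries overlapped. The difference was 0.61 ± 0.12 (edgeR adjusted p = 0.00887), from 0.57 ± 0.09 in HET and -0.04 ± 0.09 in WT. Pfkp, the platelet type of phosphofructokinase, had the same pattern, with 279 and 260 CPM in HET IL-6 libraries against 193 and 203 CPM in HET control libraries, and 203 and 219 CPM in WT IL-6 libraries against 234 and 212 CPM in WT control libraries. Its difference was 0.53 ± 0.12 (edgeR adjusted p = 0.0139), and 5.58% of its exon bases overlap Pitrm1 on the other strand.

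Pfkfb4 was level in HET and lower with IL-6 in WT. It had 41.2 and 41.5 CPM in HET IL-6 libraries against 39.7 and 40 CPM in HET control libraries, and 27.4 and 30.8 CPM in WT IL-6 libraries against 45.8 and 37.6 CPM in WT control libraries. The difference was 0.58 ± 0.15 (edgeR adjusted p = 0.0274). Aldoc fell in both genotypes, by 0.58 in HET and 1.44 in WT on the log2 scale, with a difference of 0.86 ± 0.17 (edgeR adjusted p = 0.00852). Pgk1 rose in both, by 0.30 ± 0.08 in HET and 0.70 ± 0.08 in WT, with a difference of -0.39 ± 0.11 (edgeR adjusted p = 0.0418). For the difference of responses, the number of all tested genes called also changed with the library left out. None of the 5 passed without each library in turn. Aldoc was lost only without HET IL-6 number 1 (adjusted p = 0.0528), and Hk3 without HET IL-6 number 2 (0.07) or HET control number 1 (0.0682). Pfkp was lost without any 1 of 3 HET libraries (0.0535 to 0.109, both HET IL-6 libraries and HET control number 1). Pfkfb4 (0.075 to 0.126) and Pgk1 (0.0666 to 0.256) were each lost without any 1 of 6 libraries, all 4 HET libraries in both cases, with WT IL-6 number 1 and WT control number 1 for Pfkfb4 and both WT IL-6 libraries for Pgk1. Leaving out the pair of HET number 2 libraries gave 1 member, and the pair of HET number 1 libraries 0 by edgeR, with 4 members at an unadjusted p under 0.05.

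**Figure D4:**
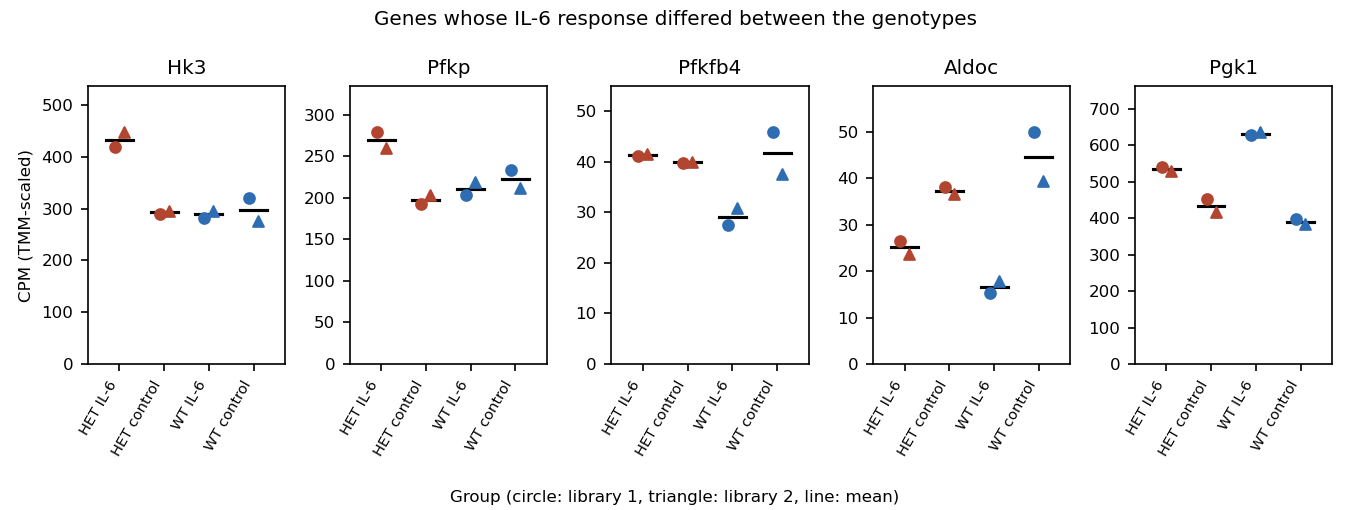
CPM of the 5 members whose IL-6 response differed between genotypes (vertical axes from 0), by group (horizontal axes), with a circle for library 1, a triangle for library 2 and a line for their mean. Hk3 and Pfkp are high in HET IL-6 alone, Pfkfb4 is low in WT IL-6, Aldoc is lowest and Pgk1 highest in WT IL-6.

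Averaged over treatment, 13 of the 34 members were higher in HET than in WT and none was lower, against a background of 11.9% of tested genes higher, 7.99% lower and 19.9% in either direction. The member median log2 fold change was 0.16, beside -0.01 over all tested genes. In 14 members HET and WT libraries did not overlap within each treatment, against a background of 22.3%. Slc2a6 differed the most (0.58 ± 0.06, edgeR adjusted p = 0.000292), at 126 and 133 CPM in HET IL-6 libraries against 70.7 and 80.9 CPM in WT IL-6 libraries, and 139 and 159 CPM in HET control libraries against 116 and 114 CPM in WT control libraries. HET libraries were above WT in both treatments. Slc2a1 (0.33 ± 0.06), Slc16a3 (0.40 ± 0.07) and Pfkl (0.37 ± 0.06) were higher in HET as well.

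Of the pentose phosphate members, 3 of 5 were higher in HET, against a background of 11.9%. The 7 further tested genes of this pathway had 1 higher and 2 lower (42.9% called, background 19.9%), with a median of -0.11. After IL-6 they also had 1 higher and 2 lower (42.9%, background 22.0%), with a median of -0.30. Tkt had 454 and 483 CPM in HET IL-6 libraries against 307 and 330 CPM in WT IL-6 libraries, and 479 and 483 CPM in HET control libraries against 449 and 391 CPM in WT control libraries. HET libraries were above WT in both treatments, with a wider gap under IL-6 (0.38 ± 0.06, edgeR adjusted p = 0.00138; difference of response 0.36 ± 0.12, adjusted p = 0.0896). Taldo1 (0.33 ± 0.06) and Pgls (0.42 ± 0.07) were also higher. Of Pgls exon bases, 20.6% overlap Fam129c on the same strand, at 0.53 to 1.26 CPM. In glycolysis, the other 6 that were higher in HET were Hk3 (0.28 ± 0.06), Eno1 (0.28 ± 0.06), Aldoa (0.25 ± 0.06), Pfkfb4 (0.22 ± 0.07), Gapdh (0.22 ± 0.07) and Pkm (0.20 ± 0.06). For Hk3 and Pfkfb4 the average came from the IL-6 libraries (0.59 ± 0.09 and 0.51 ± 0.10). In control they did not pass (-0.02 ± 0.09 and -0.06 ± 0.10) and their libraries overlapped. G6pdx and Pgd did not pass (0.01 ± 0.06 and 0.15 ± 0.06).

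Many of these genotype calls were lost with a correction for GC content and gene length. With offsets for GC content and exon length fitted per library, 4 of the 13 remained called, namely Slc2a6 (0.32), Tkt (0.26), Taldo1 (0.22) and Slc2a1 (0.19), and Pkm turned to -0.04. The same offsets left 427 of all tested genes called for genotype, against 2729 without them. For IL-6 averaged over genotype all 24 calls of members remained, but there the offsets called more of all genes, 4196 against 3243. The number of all tested genes called for genotype also changed with the library left out. Over the omission of each library in turn, 7 of the 13 kept their call (Slc2a1, Slc2a6, Pfkl, Slc16a3, Pgls, Tkt and Taldo1). Leaving out HET IL-6 number 2 gave 7 members and leaving out WT control number 1 gave 20. The pair of HET number 2 libraries left out gave 4, and the pair of HET number 1 libraries 5.

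**Figure D5:**
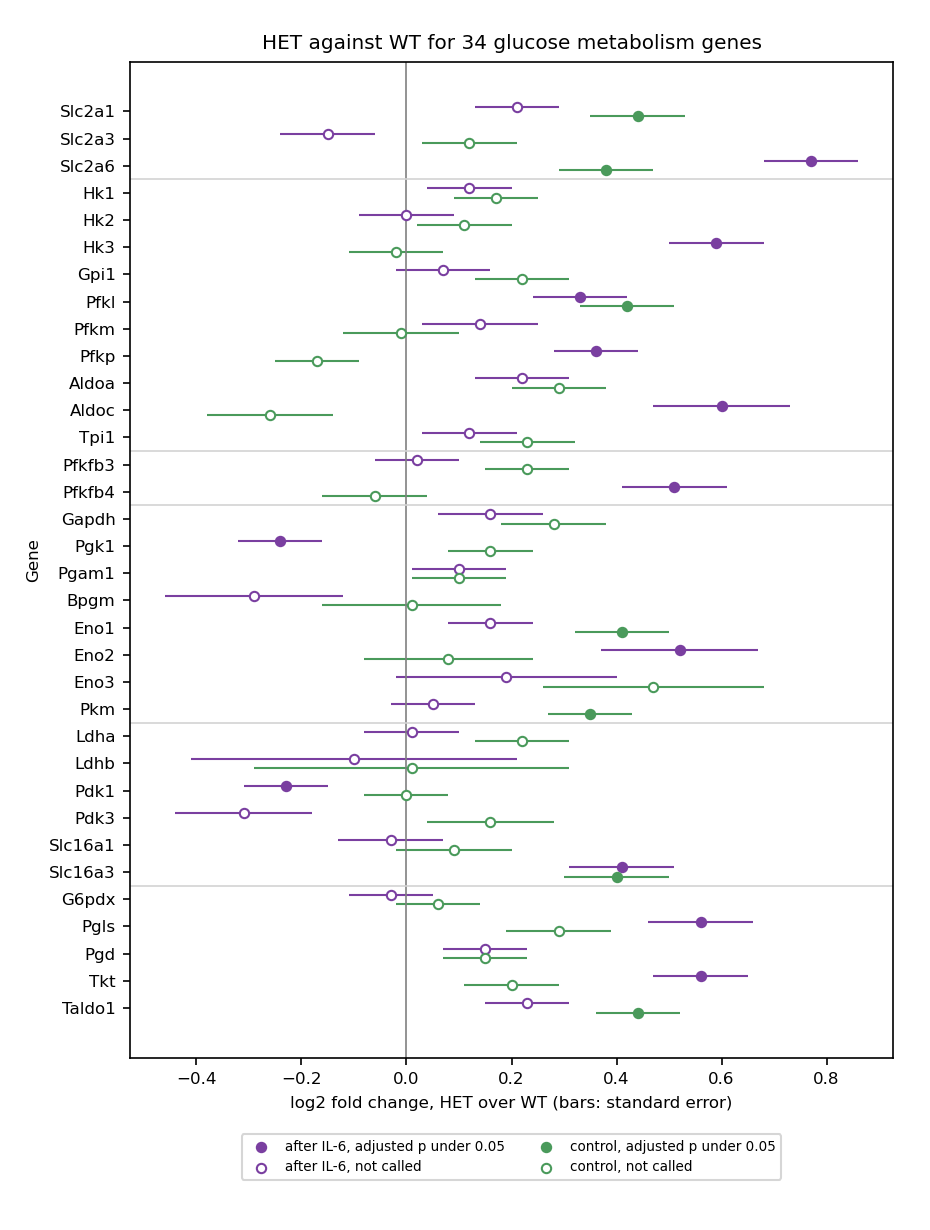
Log2 fold change of HET over WT (horizontal axis, bars are standard errors) for each member (vertical axis) after IL-6 and in control, with filled points where the edgeR adjusted p was under 0.05. Slc2a6, Hk3 and Tkt lie to the right of 0 after IL-6, and Pgk1 and Pdk1 to the left.

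After IL-6, 12 members differed between HET and WT, 10 higher and 2 lower, against backgrounds of 13.2% higher, 8.80% lower and 22.0% in either direction. They were Slc2a6 (0.77 ± 0.09), Aldoc (0.60 ± 0.13), Hk3 (0.59 ± 0.09), Pgls (0.56 ± 0.10), Tkt (0.56 ± 0.09), Eno2 (0.52 ± 0.15), Pfkfb4 (0.51 ± 0.10), Slc16a3 (0.41 ± 0.10), Pfkp (0.36 ± 0.08) and Pfkl (0.33 ± 0.09). The lower ones were Pgk1 (-0.24 ± 0.08) and Pdk1 (-0.23 ± 0.08). Both lower calls were lost with no filter on low counts, and each was lost without any 1 of 6 libraries, namely all but the WT control libraries (adjusted p of 0.0742 to 0.21 for Pgk1 and 0.0508 to 0.247 for Pdk1). With GC and length offsets 7 of the 12 calls remained, and those of Pgls (0.23), Pfkl (0.04), Eno2 (0.32), Slc16a3 (0.12) and Pdk1 (-0.09) did not. The offsets called 9 members in all, with a member median of 0.0046 against 0.14 without them. Slc2a6, Hk3 and Tkt kept their call whichever library was left out. The count came to 5 when HET IL-6 number 1 was left out, 4 for HET IL-6 number 2, 4 for WT IL-6 number 1, 5 for the pair of HET number 2 libraries and 6 for the pair of HET number 1 libraries. Here too the number of all tested genes called changed with the library left out. Libraries did not overlap for 26 of 34 members, against a background of 65.1%.

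In control cells, 7 members were higher in HET and none lower, against backgrounds of 2.81% higher, 2.05% lower and 4.85% in either direction. They were Slc2a1 (0.44 ± 0.09), Taldo1 (0.44 ± 0.08), Pfkl (0.42 ± 0.09), Eno1 (0.41 ± 0.09), Slc16a3 (0.40 ± 0.10), Slc2a6 (0.38 ± 0.09) and Pkm (0.35 ± 0.08). The edgeR adjusted p ran from 0.0127 for Taldo1 to 0.0442 for Slc16a3. None of the 7 kept its call over the omission of every library. Leaving out HET control number 1 gave 0 members by edgeR (9 at an unadjusted p under 0.05), HET control number 2 gave 1, WT control number 1 gave 14, WT control number 2 gave 2 and either HET IL-6 library gave 4. The pair of HET number 2 libraries left out gave 1, and the pair of HET number 1 libraries 0 by edgeR (7 at an unadjusted p under 0.05). The number of all tested genes called moved with the library left out as well, so these shifts are not particular to the members. Within groups, 29 of the 34 members were higher in WT control number 1 than in number 2, with a median log2 difference of 0.16. In WT IL-6, 30 were higher in number 2 than in number 1. Without regard to sign, the median size of the difference was 0.11 in WT IL-6 and 0.17 in WT control. In HET it was 0.06 with IL-6 and 0.09 in control. Libraries did not overlap for 23 of 34 members, against a background of 50.6%.

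Of 92 further genes of glucose metabolism and its control, 69 had enough counts to test, of which 13 rose and 6 fell with IL-6 averaged over genotype. That is 27.5% of the 69, near the background of 23.6%. Their median log2 fold change was -0.00, beside 0.17 for the 34 members, and both sets were chosen with earlier results of these data known. Among regulators, Txnip and Arrdc4, arrestins known to reduce glucose uptake, rose by 0.66 ± 0.07 and 1.62 ± 0.11. Arrdc4 was at 15.3 and 13.4 CPM in HET IL-6 libraries against 4.99 and 4.48 CPM in HET control libraries, and 12.7 and 12.3 CPM in WT IL-6 libraries against 3.39 and 4.68 CPM in WT control libraries. Stat3, the transducer of IL-6 signals, rose by 0.56 ± 0.06, Epas1, which encodes HIF-2 alpha, by 0.86 ± 0.09, and Hif1a by 0.27 ± 0.07 (edgeR adjusted p = 0.0119). Myc fell by 0.54 and Irf4 by 1.19 on the log2 scale. Adpgk, an ADP-dependent glucokinase, rose by 0.51 ± 0.06.

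Between genotypes, 10 of the 69 were higher and 6 lower in HET, averaged over treatment, which is 23.2% and near the background of 19.9%. Egln2, an oxygen-sensing prolyl hydroxylase that marks HIF alpha subunits for destruction, was higher in HET (0.47 ± 0.07), as were Sirt6 (0.39 ± 0.10), a deacetylase that represses glycolytic genes, Myc (0.30 ± 0.07) and Rptor (0.28 ± 0.06), a subunit of mTORC1. Egln2 differed by 0.76 ± 0.11 after IL-6 and 0.19 ± 0.11 in control, and its difference of response was called (0.57 ± 0.15, edgeR adjusted p = 0.0321). Sirt6 and Myc passed after IL-6 (0.62 ± 0.13 and 0.49 ± 0.09) and not in control, and Rptor passed in control (0.40 ± 0.09) and not after IL-6, but for these 3 the difference of response was not called (adjusted p = 0.16, 0.0973 and 0.289). Hif1a was lower in HET (-0.25 ± 0.07, edgeR adjusted p = 0.0262), at 183 and 183 CPM in HET IL-6 libraries against 230 and 208 CPM in WT IL-6 libraries, and 149 and 155 CPM in HET control libraries against 159 and 201 CPM in WT control libraries. HET libraries were below WT in both treatments. How these genotype calls of regulators hold with GC and length offsets or without a library is not given here. Those offsets left 427 of all tested genes called for genotype averaged over treatment, against 2729 without them.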

How the data were processed

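The values are raw gene counts that the authors deposited for 55376 genes in 8 libraries, from a stranded polyA library kit, per the labels' protocols. Per the submitters' processing notes, the tools included STAR 2.7.9a and featureCounts 1.6.2, with fastp 0.12.4 and SAMtools 1.9, on mm10. The strand setting of the counting is not given in the sources used here, so genes that overlap a member's exons make its counts uncertain. From these counts, library sizes were scaled by TMM, filterByExpr at a minimum count of 10 chose the genes, and edgeR 4.0.16 (R 4.3.3) ran its robust quasi-likelihood F test over the 8 libraries, using 1 mean per group and leaving 4 residual degrees of freedom. Tests were 2-sided, p-values were adjusted over 13721 genes by the Benjamini-Hochberg method, and called means an adjusted p under 0.05. The script was tested on simulated counts. TPM used the deposited exon lengths, and 26 symbols turned into dates were restored in 25 cases. Depth was 18926641 to 50137897 counts, so a floor of 3 counts was 0.0598 to 0.159 CPM before TMM, covering counting error only. Libraries of the same group all differed by more than sampling noise.

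The members, the lists of further genes and the markers were chosen with earlier results of these data known. All 34 members could be named. Of the further genes, those named were the 6 with the smallest p for IL-6, the 4 with the smallest p for genotype, and Hif1a, Myc, Stat3, Txnip and Dnmt3a. Promoter windows came from RefSeq, and copies and overlaps from GENCODE M21 gene models. Alternatives were DESeq2 (1.42.0) as the test or for size factors, scaling to total counts, no filter, only the libraries compared, a replicate block, GC and length offsets, leaving out libraries, and levels without length scaling.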

Additional observations from a re-analysis of the deposited data

Results flagged for a closer look

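The IL-6 response of 5 members differed between HET and WT by the test of the difference itself (edgeR, adjusted p under 0.05). The log2 difference, HET minus WT, was 0.61 for Hk3, 0.53 for Pfkp, 0.58 for Pfkfb4, 0.86 for Aldoc and -0.39 for Pgk1. With GC and length offsets all 5 remained called, with differences of 0.44, 0.60, 0.49, 0.82 and -0.37 in the same order. With no filter on low counts Pgk1 lost its call, and none of the 5 kept its call over the omission of every library. What lies behind these differences was not tested.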

How the results depend on the processing

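Counts below are of members called out of 34. The number of all tested genes called also changed with the library left out, as given in the last paragraph. The DESeq2 test, DESeq2 size factors, total-count scaling, no filter and only the libraries compared kept each count within 1.5 times (the last gave no value for averaged comparisons or the difference of responses, which already use all libraries). Scaling to total counts moved the split of all genes called for IL-6 to 1193 higher and 2234 lower, against 1484 and 1759 with TMM. With GC and length offsets the counts were 4 for HET against WT in control, 9 after IL-6, 5 averaged over treatment, 20 for IL-6 in HET and 9 (5 higher, 4 lower) for the difference of responses (4 higher, 1 lower without offsets), and Pkm in HET against WT averaged over treatment turned to -0.04 (adjusted p = 0.63). The cause was not tested.

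Leaving out 1 library gave 18 to 23 for IL-6 averaged over genotype, 6 to 18 in HET, 16 to 18 in WT, 0 to 14 for HET against WT in control, 4 to 15 after IL-6, 7 to 20 averaged over treatment, and 1 to 8 for the difference of responses; a lone library is then assumed to vary like the other groups. Without both HET number 1 libraries the counts were 14 for IL-6 averaged, 4 in HET, 0 for genotype in control, 6 after IL-6, 5 averaged and 0 for the difference. Without both HET number 2 libraries they were 15, 3, 1, 5, 4 and 1 in that order. Without both WT number 1 libraries 17 were called for genotype in control and 11 (3 higher, 8 lower) for the difference, and without both WT number 2 libraries 22 for genotype after IL-6 and 10 (7 higher, 3 lower) for the difference.

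The labels do not say that a number marks a mouse. Deviations of same-numbered libraries correlated at 0.152 across genes in HET and -0.113 in WT, and at 0.654 and -0.293 across the 34 members. With the number as a replicate block the counts were 19, 12 and 16 for IL-6 averaged, in HET and in WT, 4, 10 and 10 for genotype in control, after IL-6 and averaged, and 1 for the difference, where Aldoc kept its call and Hk3, Pfkp, Pfkfb4 and Pgk1 did not; after IL-6 the 10 were all higher, without Pgk1 and Pdk1. Crossing the WT numbers, chosen after seeing the data, gave 26 for IL-6 averaged, 22 in WT and 14 (6 higher, 8 lower) for the difference.

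Of all tested genes, the number called for HET against WT in control was 666, and 1078 with no filter, 437 with only the libraries compared and 339 with the block. For IL-6 in HET it was 2508, and 3945 with only the libraries compared. For the difference it was 1114, and 506 with the block, 3121 with crossed numbers and 1707 with offsets. Crossed numbers gave 5144 for IL-6 averaged (against 3243) and 4443 in WT (against 2515). Offsets gave 1574 for genotype after IL-6 (against 3021) and 427 averaged (against 2729). Leaving out 1 library gave 33 to 1304 for genotype in control, 879 to 4000 after IL-6, 940 to 4500 averaged, 1203 to 3061 for IL-6 in HET, 1577 to 3073 in WT and 304 to 2123 for the difference. Without length scaling the summed member share was 1.15% in HET IL-6, 1.05% in HET control, 1.05% in WT IL-6 and 0.882% in WT control, against 0.988%, 0.921%, 0.937% and 0.773% with it. With 2 libraries a group, small differences may have gone undetected.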
